A study of Mus musculus with 6 samples.

Results

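Th1 cells are the CD4 T helper cells that make interferon gamma, and the genes described here are 8 members of the machinery that makes or receives it. They are the cytokine gene Ifng, the transcription factor genes Tbx21, Stat4, Runx3 and Hlx, and the receptor genes Il12rb2, Ifngr1 and Ifngr2. They were found by gene symbol in a table of 24182 genes, where each of the 8 has a row, and genes of low level were kept. RNA was sequenced in bulk from mouse Th17 cells, the helper cells that make interleukin 17. In 3 libraries, labelled Sirt2 KO and numbered 1 to 3, the deacetylase gene Sirt2 had been targeted with CRISPR/Cas9, and the 3 libraries labelled Sirt2 WT, also numbered 1 to 3, are controls. Both groups were cultured for 72 hours with antibodies that crosslink the T cell receptor complex (CD3, 0.5 μg/mL) and its costimulatory receptor (CD28, 1 μg/mL), and the treatment label of all 6 libraries reads untreated. The labels do not give the strain, the animals' age, the guide RNA, whether knockout cells are a clone or a pool, or whether replicates are separate cultures or animals. Whatever separates the replicates, biological or technical, is the spread that the p-values measure.

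Interleukin 12 signals through a receptor that holds the IL12RB2 chain and activates STAT4, and T-bet, the product of Tbx21, drives Ifng and Il12rb2 in Th1 cells. RUNX3 acts with T-bet at Ifng, and HLX is a homeobox factor that acts with T-bet in Th1 cells. Interferon gamma then binds IFNGR1 and IFNGR2, which signal through Janus kinases. Th17 cells are made under other cytokines, but they can acquire T-bet and interferon gamma, a state described in inflamed tissue.

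Expression is given in FPKM, fragments per kilobase of exon scaled to the total of the library, so that levels can be set beside each other across genes. Sirt2 itself was at 11.2, 13.5 and 10.9 FPKM across KO replicates 1 to 3 and at 20.7, 19.9 and 21.9 FPKM across WT replicates 1 to 3. Each KO library was thus below each WT library, while Sirt2 RNA was still present in the KO libraries. The libraries held 10642 to 10958 genes at 1 FPKM or more. KO replicate 3 stood apart from the other KO libraries. Its log2(FPKM + 1) values over the tested genes had a correlation of 0.981 and 0.979 with the other KO libraries but 0.990 with each WT library. KO replicates 1 and 2 had a correlation of 0.992 with each other and of 0.985 to 0.987 with the WT libraries. These values do not show which of the KO libraries deviate. Genes are not independent replicates, so these are descriptions. Gene differences are given with and without KO replicate 3 where both fits gave one. The labelled cell type was matched by its markers. All 7 T cell markers and all 8 Th17 markers, Il17a and Il17f among them, reached 1 FPKM in at least 3 libraries.

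The 250 bases before the start of transcription are shown for Ifng, Tbx21 and Il12rb2, the 3 members whose values separated the KO libraries from WT or from each other. The sequences are from RefSeq on GRCm38.p6, are written 5′ to 3′ on the gene's strand, and carry a searched motif in capitals. The motifs were the T-box core TCACAC, the STAT motif TTCNNNGAA and the RUNX core TGTGGT, each on both strands. Matches to different motifs did not overlap in these windows.
Ifng, chr10:118440796-118441045, plus strand: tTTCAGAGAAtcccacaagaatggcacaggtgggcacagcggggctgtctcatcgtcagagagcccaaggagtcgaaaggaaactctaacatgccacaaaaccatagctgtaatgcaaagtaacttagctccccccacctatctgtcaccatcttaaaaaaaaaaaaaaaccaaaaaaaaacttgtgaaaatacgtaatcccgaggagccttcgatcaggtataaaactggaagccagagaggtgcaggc
Tbx21, chr11:97115332-97115581, minus strand: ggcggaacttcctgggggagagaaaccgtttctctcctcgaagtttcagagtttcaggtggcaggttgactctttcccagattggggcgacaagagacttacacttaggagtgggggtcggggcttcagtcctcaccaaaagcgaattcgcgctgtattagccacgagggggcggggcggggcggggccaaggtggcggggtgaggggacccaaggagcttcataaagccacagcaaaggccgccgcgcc
Il12rb2, chr6:67376189-67376438, minus strand: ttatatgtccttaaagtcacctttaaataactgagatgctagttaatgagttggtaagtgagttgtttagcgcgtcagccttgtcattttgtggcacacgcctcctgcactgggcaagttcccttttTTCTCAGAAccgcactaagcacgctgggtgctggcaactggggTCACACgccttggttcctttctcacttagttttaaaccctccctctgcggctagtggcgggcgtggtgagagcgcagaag
The Ifng window holds a STAT match from 249 to 241 bases before the start. The Il12rb2 window holds a STAT match from 123 to 115 bases before the start and a T-box match from 80 to 75 bases before it. The Tbx21 window holds no match to these letters. Over 32851 RefSeq promoter windows of this length, 12.3% held the T-box letters, 7.02% the STAT letters and 14% the RUNX letters. A match is a stretch of letters and does not show that a factor binds there.

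Ifng (ENSMUSG00000055170, GRCm38 chromosome 10, 118441046 to 118445892, plus strand), which encodes interferon gamma itself, was measured at 0.893, 1.08 and 0.547 FPKM across KO replicates 1 to 3. In WT replicates 1 to 3 it was at 0.153, 0.166 and 0.102 FPKM. Every KO library was above every WT library, and the lowest KO value, of replicate 3, was still above the highest WT value. The means were 0.840 ± 0.270 FPKM in the KO libraries and 0.14 ± 0.0336 FPKM in the WT libraries (SD, n = 3), a ratio of 5.98. These levels were far under those of the Th17 cytokine gene Il17f, which ran from 201.7 to 357.3 FPKM.

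Because Ifng reached 1 FPKM in KO replicate 2 alone, it missed the expression filter of 1 FPKM in 3 libraries and was read from a fit of all 24182 genes with no filter. Its difference on the log2(FPKM + 1) scale, which understates changes of low genes, was 0.68 (95% interval 0.39 to 0.97, limma adjusted p = 0.382). That fit called 0.0331% of all genes at an adjusted p under 0.05. Leaving out KO replicate 3, the Ifng difference was 0.80, with a limma adjusted p of 0.0557, in a fit that called 0.0639% of genes. In the authors' deposited table Ifng has a q-value of 0.001585 and carries the mark of significance, which that table gives, as higher in KO, to 0.236% of its genes. The sources used here do not give the test behind that mark. Of the 57 genes it marks as higher, 49 were under 1 FPKM in every WT library, as Ifng was. Low levels are common, as 10811 to 10867 of the 24182 genes reached 1 FPKM in each single WT library.

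The depth behind the Ifng value is small. The tables hold no counts, but FPKM times length of low single-exon genes piled up at a common value in each library. From 101 to 142 values per library lay at that common value, and 93 to 107 lay at that value divided by 2. If the smaller value is 1 read pair, the depth and all pair figures would be higher than those given here. If the common value is 1 read pair, the libraries held about 22400000 to 24000000 pairs. On that scale Ifng corresponds to about 27.4, 32.3 and 17.0 pairs in the KO libraries and 4.6, 4.8 and 3.1 pairs in the WT libraries. Tbx21 corresponds to 82.7 to 257.9 pairs. From 21.7% to 24.4% of low values lay within 0.02 steps of a multiple of one step, where a step is the 1-pair value divided by 2, so read counts could not be recovered and these figures are approximate.

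Tbx21 (ENSMUSG00000001444, chromosome 11, 97098071 to 97115331, minus strand), which encodes T-bet, was at 4.38, 2.83 and 2.11 FPKM across KO replicates 1 to 3. In WT replicates 1 to 3 it was at 1.62, 1.48 and 1.598 FPKM. The groups did not overlap, the WT libraries lay close together, and the KO libraries spread over a wider range. The means were 3.11 ± 1.16 FPKM in the KO libraries and 1.57 ± 0.0749 FPKM in the WT libraries, a ratio of 1.98. The log2 difference was 0.64 (SE 0.188, 95% interval 0.20 to 1.08) and did not pass (limma adjusted p = 0.806). It was 0.82 without KO replicate 3 and passed (limma adjusted p = 0.0230). In the authors' deposited table the q-value of Tbx21 is 0.0582 and the gene carries no mark of significance. Tbx21 overlaps no other annotated gene.

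Ifng and Tbx21 were the 2 members of 8 that were higher in every KO library, and 0 were lower in every KO library. Over all 24182 genes, 3.79% were higher in every KO library and 5.26% were lower. Both genes were lowest in KO replicate 3 among the KO libraries. Tbx21 was highest in KO replicate 1 and Ifng in KO replicate 2.

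**Figure D1:**
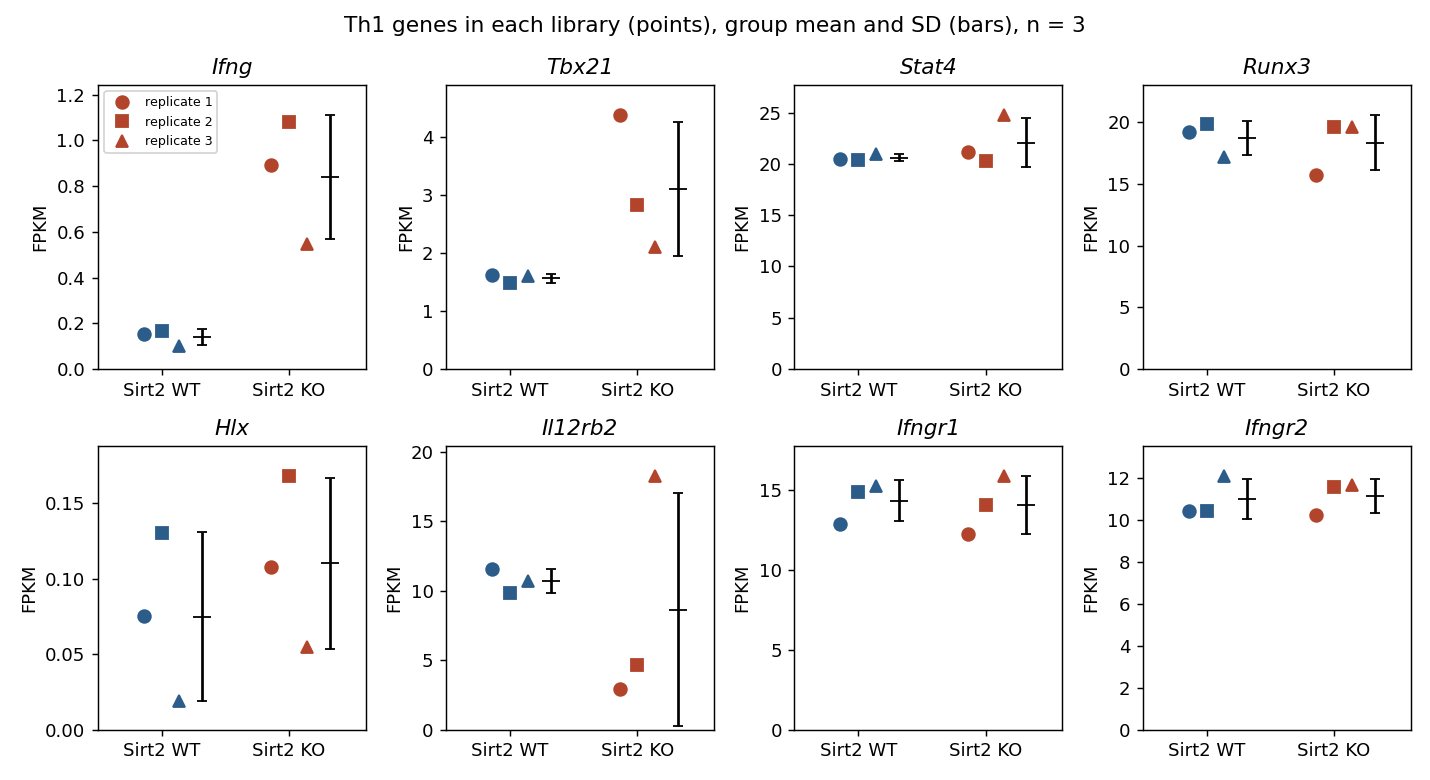
FPKM of the 8 genes in each library, with the 3 Sirt2 WT and 3 Sirt2 KO libraries on the x axis of each panel, a symbol for each replicate number, and a bar for the group mean with its SD. Ifng and Tbx21 show no overlap between the groups, while the Il12rb2 values of the KO libraries lie on both sides of the WT values.

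In bulk RNA, more cells that express a gene and more RNA per expressing cell cannot be told apart. Markers of other cell types were set beside the Ifng and Tbx21 values, and some of each list were higher in every KO library, as 3.79% of all genes were. Of 9 NK, ILC1 and cytotoxic markers, 6 have a row in the table, and 3 of these (Gzmb, Klrk1 and Gzma) were higher in every KO library. Their summed level was 16.3 to 21.8 FPKM in the KO libraries and 4.26 to 4.95 FPKM in the WT libraries. Without Gzmb, which encodes granzyme B and which activated T cells also make, the sums were 2.23 to 4.76 FPKM in the KO libraries and 1.499 to 2.02 FPKM in the WT libraries. Among the KO libraries the sum with Gzmb was lowest in replicate 3, while the sum without it was highest there. Gzmb itself had a log2 difference of 2.16 and was called (limma adjusted p = 0.00675), as 0.11% of the tested genes were. Eomes, Klrd1 and Prf1 overlapped between the groups. Cd8a, the CD8 T cell marker, was at 0.225 to 0.436 FPKM in the KO libraries and 0.0856 to 0.120 FPKM in the WT libraries, while Cd8b1 overlapped, so that 1 of 2 CD8 markers was higher. Their summed level was 3.59 to 6.15 FPKM in the KO libraries and 3.84 to 4.98 FPKM in the WT libraries.

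Of the 3 gamma delta T cell markers in the table, Trdc was higher in every KO library. Their summed level was 1.69 to 1.87 FPKM in the KO libraries and 0.677 to 0.854 FPKM in the WT libraries. Of 10 myeloid markers, 7 were higher in every KO library, with sums of 9.16 to 14.2 FPKM in the KO libraries and 2.93 to 3.60 FPKM in the WT libraries. Of 6 B cell markers, 3 were higher, with sums of 22.7 to 27.5 FPKM in the KO libraries and 19.1 to 19.7 FPKM in the WT libraries, most of it from Ighm. No marker of these 5 lists was lower in every KO library, as 5.26% of all genes were. The B cell marker Ms4a1 was listed at 0 in all WT libraries. Among the KO libraries the myeloid sum was lowest in KO replicate 3, as Ifng and Tbx21 were. The largest value in that sum was that of Lyz2, at 8.31, 9.44 and 4.24 FPKM across KO replicates 1 to 3. Fcer1g was also lowest in KO replicate 3, while Cd14, Csf1r, Cd68 and Fcgr1 were highest there. The CD8, gamma delta and B cell sums were highest there too. Most of the CD8 sum came from Cd8b1. Cd8a was lowest in KO replicate 3, at 0.436, 0.409 and 0.225 FPKM across KO replicates 1 to 3. The part of these cells in the Ifng and Tbx21 values was not tested. The summed level of the T cell markers was 620.7 to 674.1 FPKM in the KO libraries and 607.9 to 625.0 FPKM in the WT libraries. That of the Th17 markers was 292.5 to 449.5 FPKM in the KO libraries and 452.2 to 471.3 FPKM in the WT libraries. However, 0 of the 8 Th17 markers were lower in every KO library, and 1, Il22, was higher in each. Most of the Th17 sum came from Il17f, whose groups overlapped because KO replicate 2 lay within the WT range.

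Stat4 (ENSMUSG00000062939, chromosome 1, 51987148 to 52107189, plus strand), which encodes the factor that interleukin 12 activates, had the highest WT level of the 8 genes. It was at 21.2, 20.2 and 24.7 FPKM across KO replicates 1 to 3 and at 20.5, 20.4 and 20.97 FPKM across WT replicates 1 to 3. KO replicate 3 was above the other 5 libraries, and the groups overlapped. The log2 difference was 0.09 (95% interval -0.11 to 0.29, limma adjusted p = 0.876).

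Runx3 (ENSMUSG00000070691, chromosome 4, 135120652 to 135177990, plus strand), which encodes a RUNX factor of Th1 and CD8 T cells, was at 15.8, 19.7 and 19.6 FPKM across KO replicates 1 to 3. In WT replicates 1 to 3 it was at 19.2, 19.9 and 17.2 FPKM. KO replicate 1 was the lowest library, and the other 2 KO libraries lay within the WT range. The log2 difference was -0.04 (95% interval -0.27 to 0.20, limma adjusted p = 0.954).

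Hlx (ENSMUSG00000039377, chromosome 1, 184727140 to 184732619, minus strand) was near the limit of the data. It was at 0.108, 0.168 and 0.0547 FPKM across KO replicates 1 to 3 and at 0.0754, 0.131 and 0.0188 FPKM across WT replicates 1 to 3. The groups overlapped, and on the scale above these values correspond to about 1.0 to 8.8 read pairs, so no ratio is drawn from them. In the fit with no filter its log2 difference was 0.05 (95% interval -0.09 to 0.18, limma adjusted p = 0.867).

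Il12rb2 (ENSMUSG00000018341, chromosome 6, 67291318 to 67376188, minus strand), which encodes the signalling chain of the interleukin 12 receptor, split the KO libraries. It was at 2.94 and 4.69 FPKM in KO replicates 1 and 2 but at 18.3 FPKM in KO replicate 3. In WT replicates 1 to 3 it was at 11.6, 9.84 and 10.7 FPKM. KO replicates 1 and 2 lay below every WT library and KO replicate 3 above every one. The mean of KO replicates 1 and 2 was 0.356 of the WT mean, and KO replicate 3 was 1.71 times the WT mean.

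With all 6 libraries the means of Il12rb2 were 8.63 ± 8.39 FPKM in the KO libraries and 10.7 ± 0.871 FPKM in the WT libraries. The log2 difference was -0.63 (95% interval -1.82 to 0.56) and did not pass (limma adjusted p = 0.870). It was -1.30 without KO replicate 3 (SE 0.151, 95% interval -1.66 to -0.95) and passed (limma adjusted p = 0.00879). The KO libraries spanned a 6.21-fold range and the WT libraries a 1.18-fold range. In that order of libraries Il12rb2 ran opposite to Tbx21, which was highest in KO replicate 1 and lowest in KO replicate 3 among the KO libraries.

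The Il12rb2 gene overlaps Serbp1, a housekeeping gene for an RNA-binding protein on the opposite strand. The main Il12rb2 transcript shares 819 of its 2998 bases with Serbp1 exons. Serbp1 was at 53.8 to 57.5 FPKM in the 6 libraries. The sources used here do not say whether counting used strand, and the share of Serbp1 reads in the Il12rb2 values was not tested.

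Ifngr1 (ENSMUSG00000020009, chromosome 10, 19591949 to 19610229, plus strand), which encodes the ligand-binding chain of the interferon gamma receptor, was at 12.2, 14.1 and 15.9 FPKM across KO replicates 1 to 3. In WT replicates 1 to 3 it was at 12.9, 14.9 and 15.3 FPKM. Ifngr2 (ENSMUSG00000022965, chromosome 16, 91547072 to 91565623, plus strand), which encodes the signalling chain, was at 10.2, 11.5 and 11.6 FPKM across KO replicates 1 to 3. In WT replicates 1 to 3 it was at 10.4, 10.4 and 12.1 FPKM. For both chains the KO and WT ranges overlapped. The log2 difference of Ifngr1 was -0.03 (95% interval -0.28 to 0.22, limma adjusted p = 0.964). That of Ifngr2 was 0.02 (95% interval -0.19 to 0.22, limma adjusted p = 0.971).

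**Figure D2:**
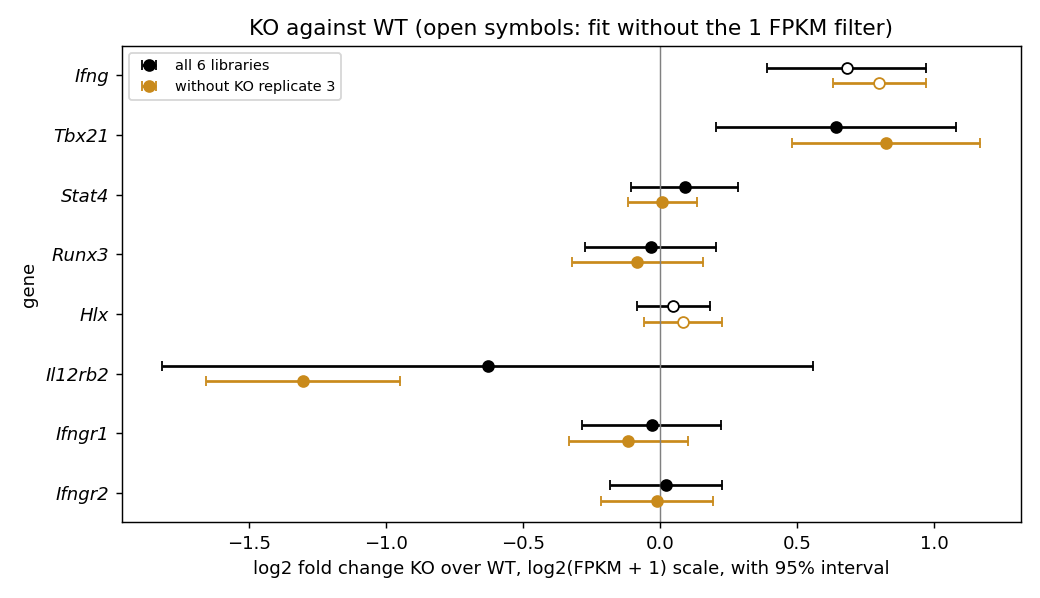
Log2 fold change of KO over WT on the log2(FPKM + 1) scale for each gene, with its 95% interval, from all 6 libraries (black) and without KO replicate 3 (orange). Open symbols are from the fit with no expression filter. The intervals of Ifng and Tbx21 lie above 0 in both fits, and that of Il12rb2 lies below 0 only without KO replicate 3.

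Of the 8 genes, 6 passed the expression filter and 0 were called in either direction at a limma adjusted p under 0.05, where 0.11% of the 10873 tested genes were called. Among the 6, Tbx21 was the 1 gene with an unadjusted p under 0.05, against 5.61% of the tested genes. Without KO replicate 3, Tbx21 was called higher and Il12rb2 lower. In that fit 4% of all tested genes were called higher and 6.14% lower. Both calls were lost when the filter was dropped as well, in the fit from which Ifng was read (limma adjusted p = 0.126 for Tbx21 and 0.0853 for Il12rb2). The differences of the other 5 genes without that library were 0.0067 for Stat4, -0.08 for Runx3, 0.08 for Hlx (no filter), -0.12 for Ifngr1 and -0.011 for Ifngr2, with limma adjusted p of 0.418 or more. KO values spanned a wider ratio than WT values in 6 of the 8 genes.

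**Figure D3:**
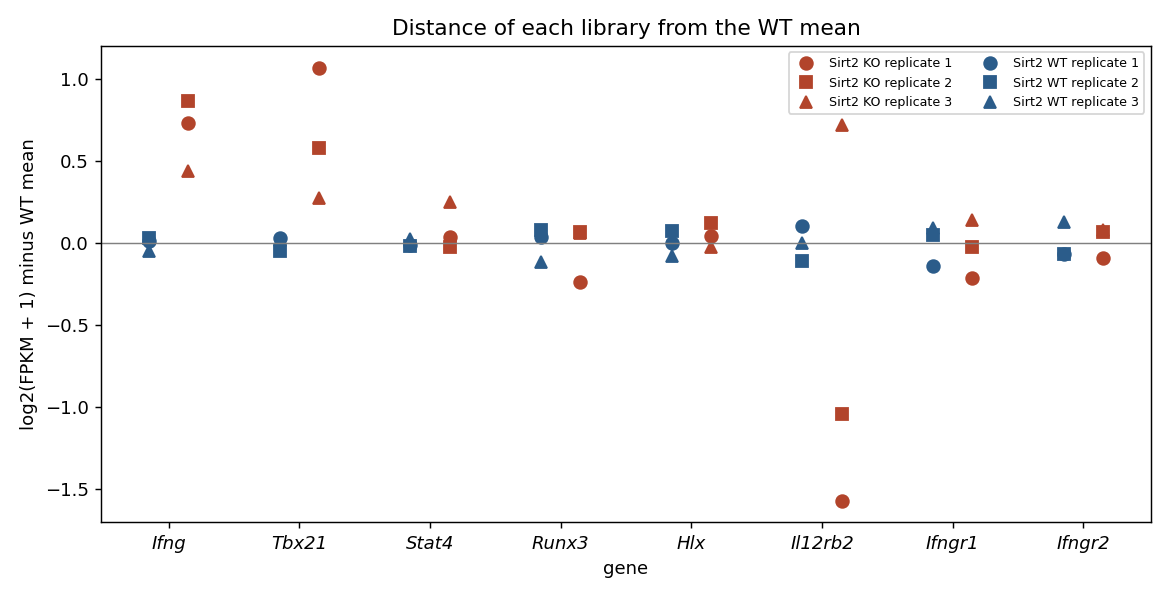
Distance of each library from the WT mean on the log2(FPKM + 1) scale for the 8 genes, with WT libraries in blue, KO libraries in red and a symbol for each replicate number. KO replicate 3 (triangle) is nearest to WT for Ifng and Tbx21 among the KO libraries, and lies on the other side of WT from KO replicates 1 and 2 for Il12rb2.

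By WT mean the order of levels was Stat4 at 20.6 ± 0.313 FPKM, Runx3 at 18.8 ± 1.38, Ifngr1 at 14.4 ± 1.29, Ifngr2 at 10.97 ± 0.949, Il12rb2 at 10.7 ± 0.871, Tbx21 at 1.57 ± 0.0749, Ifng at 0.14 ± 0.0336 and Hlx at 0.0750 ± 0.0559 FPKM. The WT ranges of Ifngr2 and Il12rb2 overlapped, as did those of Ifng and Hlx, so these neighbours did not differ beyond their spread. The other neighbours had separate WT ranges. In WT cells the receptors and 2 of the 4 factors were thus above 9 FPKM, while Ifng, Tbx21 and Hlx were below 2 FPKM. In KO the order by mean kept Stat4, Runx3, Ifngr1 and Ifngr2 in the leading places.

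The transcript table holds 23 annotated transcripts of these genes, of which 8, from 6 genes, passed the same filter. None was called (limma adjusted p under 0.05), where 0.0417% of the 19184 tested transcripts were called, and the transcript of Tbx21 was the 1 with an unadjusted p under 0.05. None was called without KO replicate 3 either, where 0.0273% of tested transcripts were. Isoform shares come from short reads divided between overlapping transcripts and can be unstable. The coding transcript of Ifng (ENSMUST00000068592) was at 0.954, 1.15 and 0.567 FPKM in the KO libraries and 0.164, 0.176 and 0.110 FPKM in the WT libraries. Its groups did not overlap, as for the gene. It shares 249 of its 1208 bases with exons of the unnamed locus Gm49751, which was at 0.0193 FPKM or less in each library.

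One transcript accounted for nearly all of Stat4 and Il12rb2. ENSMUST00000027277 made up 95.7% to 99.5% of the summed transcript FPKM of Stat4, and ENSMUST00000018485 made up 98% to 99.6% of that of Il12rb2. The Stat4 transcript shares 1033 of its 2982 bases with the unnamed locus Gm28177, which was at 0.37 FPKM or less in each library. ENSMUST00000018485 was at 3.71, 5.91 and 22.8 FPKM across KO replicates 1 to 3 and 14.6, 12.4 and 13.3 FPKM across WT replicates 1 to 3. The KO libraries split here as they did for the gene total. Without KO replicate 3 its log2 difference was -1.34 (limma adjusted p = 0.145).

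Runx3 has a distal and a proximal start that give proteins with different amino ends. The distal transcript (ENSMUST00000056977), the form known from mature T cells, made up 89.3% to 97.6% of Runx3 in every library. The proximal transcript (ENSMUST00000119564) was at 0.259, 2.10 and 2.04 FPKM in the KO libraries and 2.26, 0.549 and 1.74 FPKM in the WT libraries. Its share was 1.25% to 8.54% and its groups overlapped (limma adjusted p = 0.985). The window before the distal start holds RUNX matches from 134 to 129 and from 126 to 121 bases before the start.

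Ifngr1 is the other gene with more than 1 transcript past the filter, and its make-up varied between libraries. Its coding transcript (ENSMUST00000020188) was at 14.6, 18.8 and 13.0 FPKM in the KO libraries and 15.1, 12.8 and 19.5 FPKM in the WT libraries. A transcript annotated as a target of nonsense-mediated decay, the pathway that degrades RNA with an early stop (ENSMUST00000164591), was at 1.85, 0 and 8.79 FPKM in the KO libraries and 2.28, 7.60 and 1.15 FPKM in the WT libraries. Its share was highest in KO replicate 3, at 39.1%, and WT replicate 2, at 36.3%, and was 12.8% or less in the other 4 libraries. The spread lay within both groups, and the log2 difference was -0.37 (95% interval -2.66 to 1.91, limma adjusted p = 0.959).

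**Figure D4:**
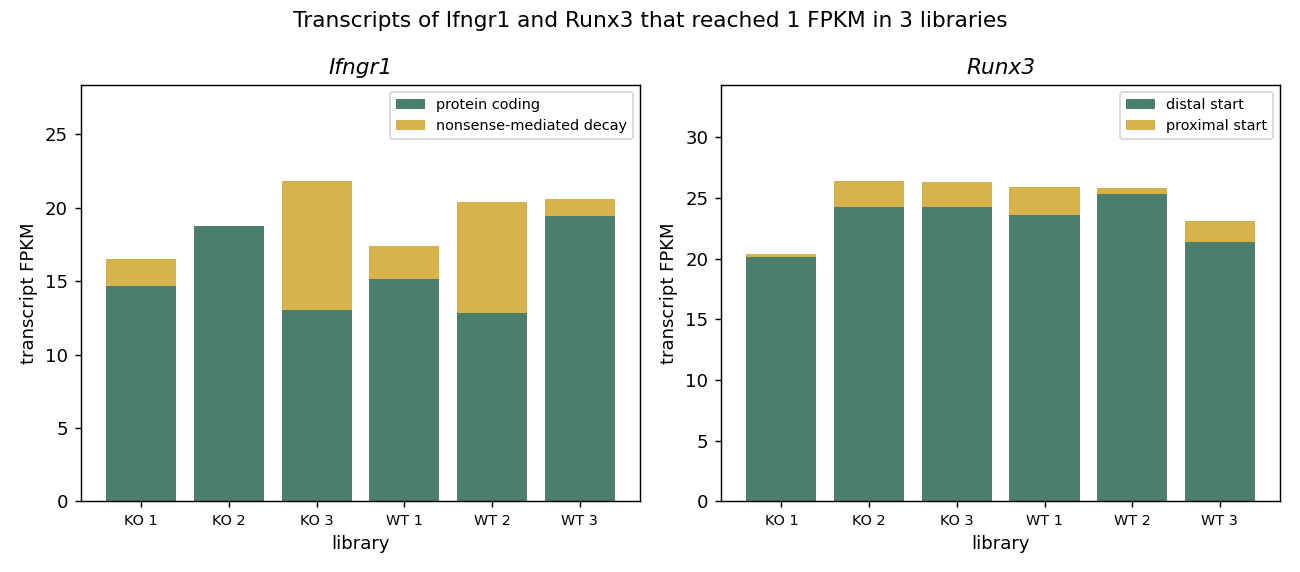
Stacked bars of transcript FPKM in each library for the coding and the nonsense-mediated decay transcript of Ifngr1 (left) and the distal and proximal transcripts of Runx3 (right). The decay transcript of Ifngr1 is large in KO replicate 3 and WT replicate 2, and the distal start dominates Runx3 in all 6 libraries.

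Around these 8 genes, 5 lists of other genes of the pathway hold 60 genes, all in the table, of which 43 passed the filter. With 6 libraries 0 of the 43 were called (limma adjusted p under 0.05), and 9 had an unadjusted p under 0.05, 7 of them higher and 2 lower in KO, where 5.61% of all tested genes had one. Of the 7, Nkg7, Ccl3 and Cxcr6 passed the filter only through the KO libraries. The median log2 difference over all tested genes was -0.03, and -0.04 without KO replicate 3. The lists were written with earlier results of these data known. They are described by their counts and medians and were not tested as sets. Some list members are also made by the other cell types above.

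A list of 9 genes holds the receptors of interleukins 12, 18 and 27, their kinases and the cytokine gene Il18. All but Il18 were tested. The median log2 difference over these 8 was -0.02, and -0.06 without KO replicate 3. Il12rb1, the partner chain of Il12rb2, was at 33.8 to 36.2 FPKM in the KO libraries and 34.1 to 36.2 FPKM in the WT libraries (limma adjusted p = 0.931), without the split seen in Il12rb2. It lies outside the rule for named genes and was chosen after its values were seen. Il18rap, the accessory chain of the interleukin 18 receptor, was at 2.02, 1.36 and 1.18 FPKM in the KO libraries and 1.09, 1.16 and 1.009 FPKM in the WT libraries. Its KO libraries were above the WT libraries, but the difference of 0.26 did not pass (limma adjusted p = 0.843), nor did that of 0.36 without KO replicate 3 (limma adjusted p = 0.109). Il27ra and Il6st, the chains of the interleukin 27 receptor, had log2 differences of -0.13 and -0.11 and overlapping groups. These were -0.22 and -0.20 without KO replicate 3 (limma adjusted p = 0.0770 and 0.0982).

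Of 10 further transcription factors linked to Th1 cells, 6 were tested, with a median of -0.01 with and without KO replicate 3. Bhlhe40, a factor that supports cytokine production in helper T cells, was at 197.7, 172.5 and 173.2 FPKM in the KO libraries and 154.9, 157.1 and 153.2 FPKM in the WT libraries. The groups did not overlap, and the log2 difference of 0.22 did not pass (limma adjusted p = 0.843). Cbfb, the partner subunit of RUNX3, was at 41.2 to 43.9 FPKM in the KO libraries and 44.8 to 47.6 FPKM in the WT libraries, a log2 difference of -0.13 (limma adjusted p = 0.843). Without KO replicate 3 the differences were 0.25 for Bhlhe40 and -0.12 for Cbfb (limma adjusted p = 0.0528 and 0.171).

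Of 12 effector and surface genes of Th1 cells, 5 were higher in every KO library and 0 were lower, beside the 3.79% and 5.26% of all genes given above. The list was written with earlier results of these data known, so these counts are descriptions. The 5 were Nkg7, Ccl3, Cxcr3, Cxcr6 and Fasl, of which Cxcr3 and Fasl are named because of these values. Fasl missed the filter, at 1.09, 0.690 and 1.02 FPKM in the KO libraries and 0.305, 0.256 and 0.540 FPKM in the WT libraries. Nkg7, a cytotoxic granule protein, was at 2.02, 2.87 and 2.22 FPKM in the KO libraries and 0.603, 0.765 and 0.944 FPKM in the WT libraries, a log2 difference of 0.93 (limma adjusted p = 0.0829). Ccl3, an inflammatory chemokine, was at 2.15, 2.11 and 1.77 FPKM in the KO libraries and 0.879, 0.181 and 0.4998 FPKM in the WT libraries, a log2 difference of 1.008 (limma adjusted p = 0.174). Cxcr6, a chemokine receptor, was at 1.41, 1.40 and 1.11 FPKM in the KO libraries and 0.694, 0.748 and 0.903 FPKM in the WT libraries, a log2 difference of 0.37 (limma adjusted p = 0.806). These 3 genes passed the filter only through the KO libraries, and they missed it whenever a KO library was left out. The median over the 7 tested genes of the list was 0.37. It was 0.18 over all 12 with no filter and -0.09 over the 3 genes that passed a filter at 5 FPKM. Leaving out KO replicate 1, 2 or 3 left 4 tested genes, without Nkg7, Ccl3 and Cxcr6. The medians over these 4 were 0.05, -0.15 and 0.21 in that order. They cover other genes than the median of 0.37. In the authors' deposited table Nkg7 has a q-value of 0.00237 and the mark of significance. Ccl3 and Fasl, with q-values of 0.0720 and 0.181 in the authors' deposited table, have none.

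Of 24 genes that interferon gamma induces, 18 were tested and their median log2 difference was -0.05, and -0.09 without KO replicate 3. Cd274, which encodes the checkpoint ligand PD-L1, was at 3.30, 3.50 and 3.28 FPKM in the KO libraries and 2.44, 2.24 and 2.77 FPKM in the WT libraries. Its groups did not overlap, and the log2 difference of 0.33 did not pass (limma adjusted p = 0.797). Irf9, an interferon regulatory factor, was at 4.12 to 5.09 FPKM in the KO libraries and 5.35 to 6.07 FPKM in the WT libraries, a log2 difference of -0.27 (limma adjusted p = 0.843). Psmb8, a subunit of the immunoproteasome, was at 53.1 to 61.95 FPKM in the KO libraries and 47.0 to 53.5 FPKM in the WT libraries, a log2 difference of 0.21 (limma adjusted p = 0.843). Without KO replicate 3 the differences were 0.34 for Cd274, -0.32 for Irf9 and 0.26 for Psmb8 (limma adjusted p = 0.0629, 0.0602 and 0.0606). Of the 24 genes, 1, Cd274, was higher and 1, Irf9, was lower in every KO library. Over all genes 3.79% were higher and 5.26% lower, so these counts are near those shares.

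Of 7 genes of opposing lineages and inhibitors, 6 were tested, with a median of -0.03. It was -0.26 over the 5 tested without KO replicate 3. Rora, a nuclear receptor of Th17 cells, had a log2 difference of -0.16, and Bcl6, the lineage factor of follicular helper T cells, one of 0.09, both with overlapping groups. They were -0.32 and 0.16 without KO replicate 3 (limma adjusted p = 0.134 and 0.368).

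Without KO replicate 3, 39 of the 60 genes passed the filter and 10 were called, 3 higher and 7 lower, beside the 4% and 6.14% of all genes given above. The higher ones were the chemokine genes Ccl4 and Cxcl10 and the chemokine receptor gene Cxcr3. Among the lower ones were Jak1, Socs3 and the interferon-induced GTPase genes Gbp3, Igtp and Irgm2. These genes fall outside the rule for named genes and were chosen after their values were seen, because they passed in that fit. Cxcl10 was at 9.38, 9.46 and 2.57 FPKM in the KO libraries and 5.53 to 6.13 FPKM in the WT libraries. Igtp was at 31.0, 37.96 and 56.6 FPKM in the KO libraries and 44.5 to 47.7 FPKM in the WT libraries. In both, KO replicate 3 lay on the other side of the WT libraries from KO replicates 1 and 2.

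**Figure D5:**
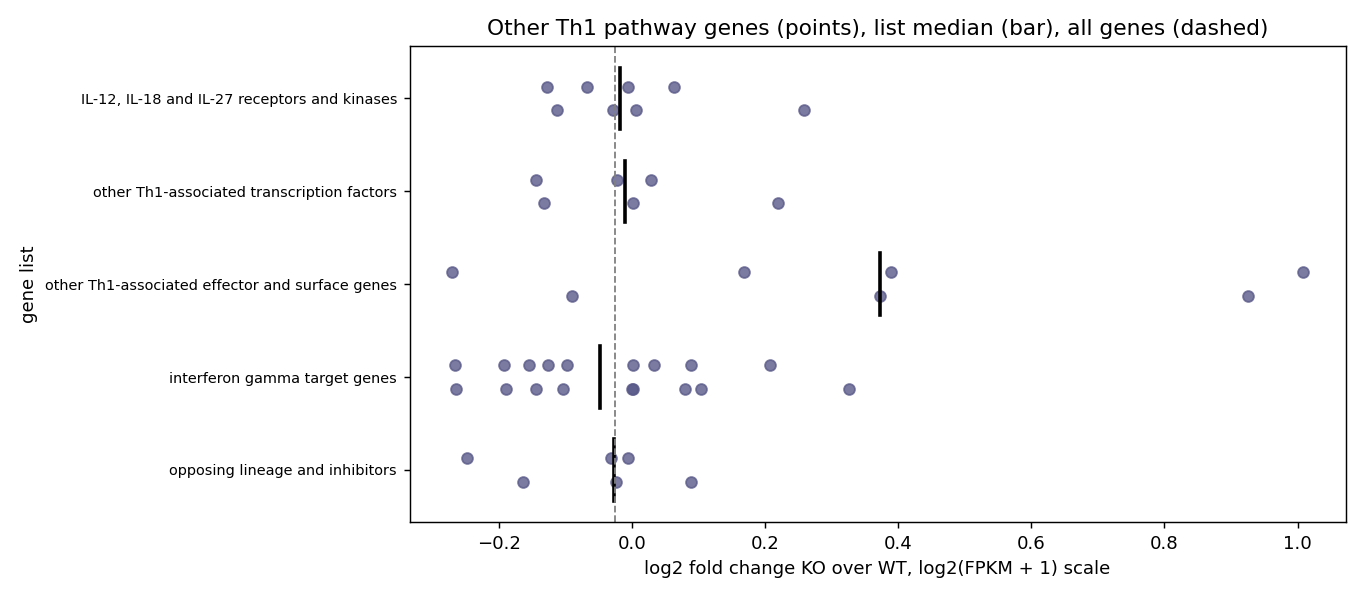
Log2 fold change of KO over WT on the log2(FPKM + 1) scale for each tested gene of the 5 lists (points), with the list median (bar) and the median of all tested genes (dashed line, at -0.03). The effector and surface genes are drawn with a median of 0.37, which rests on 3 genes that passed the filter only through the KO libraries and is 0.18 with no filter. The other 4 medians lie between -0.05 and -0.01.

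Profiles over the 6 libraries were compared by the root mean square difference of centred log2(FPKM + 1). Only genes that passed the filter, which Ifng itself missed, were compared. The named genes nearest to Ifng among 9458 were Serpina3g (0.112), Rpl30 (0.117) and Zbtb32 (0.119). Serpina3g passed the filter only through the KO libraries. It was at 1.81, 1.53 and 1.17 FPKM there and at 0.51, 0.401 and 0.359 FPKM in the WT libraries. Those nearest to Tbx21 among 9457 were Id3 (0.0984), Zbtb32 (0.120) and Serpinb9 (0.132). Rpl30 is a ribosomal protein gene with near-identical processed copies, so its value is uncertain. Zbtb32, a zinc finger repressor of activated lymphocytes, was at 66.99, 61.0 and 42.2 FPKM in the KO libraries and 36.4, 38.3 and 35.6 FPKM in the WT libraries. Id3, an inhibitor of E proteins, was at 41.5, 31.1 and 21.4 FPKM in the KO libraries and 21, 20.5 and 21.95 FPKM in the WT libraries. Both genes were highest in KO replicate 1 and lowest among KO libraries in replicate 3, where Id3 lay within the WT range. They were chosen for nearness to Tbx21, so sharing its order follows from that choice. These are descriptions over 6 libraries that share the difference of KO replicate 3 from the other KO libraries.

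The authors' deposited table of Gene Ontology terms lists 835 terms, 9 of which name interferon gamma, interleukin 12 or Th1 cells. The smallest p-value among these in the authors' deposited table was that of positive regulation of interferon-gamma production, with 3 of 60 significant genes against 68 of 15267 annotated genes (0.00241, with no adjustment for the number of terms stated). The authors' deposited table gives 1 significant gene for each of 6 of the 9 terms.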

How the data were processed

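RNA was measured in 6 libraries, 3 Sirt2 KO and 3 Sirt2 WT, grouped and numbered by the sample titles. Per the file headers, the authors deposited FPKM for each gene and each transcript in every library. The authors' fold column is a ratio, KO over WT, and their deposited log2 column is the logarithm of it. They also deposited a p-value and a q-value for each feature, from a tool that the sources used here do not give. An enrichment table by the authors adds p-values and other numbers, which count genes per term. The submitters' processing notes name the build mm9 and the tools HISAT2, StringTie, cutadapt, FastQC, edgeR and DESeq2, with neither versions nor roles. However, 73203 of the 73430 transcripts that GENCODE lists on GRCm38 lie at identical positions there, so coordinates are given as GRCm38. For 9057 of 10662 genes at 1 FPKM or more, the deposited gene FPKM equalled the transcript FPKM times length, summed, over the union exon length, within 1.0 percent.

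The genotypes were compared with limma 3.58.1 (R 4.3.3) on log2(FPKM + 1), using a mean trend and Benjamini-Hochberg adjustment over the whole table. Features at 1 FPKM or more in at least 3 libraries were tested, and an adjusted p under 0.05 was called. Members under the filter, Ifng and Hlx, were read from a fit with no filter. The fits were also run on simulated data with independent noise and no deviating library, which does not bear on the effect of KO replicate 3. FPKM is relative to each library's total, so a shift in abundant genes moves the others. The members, lists and rules were chosen with earlier results of these data known. Named genes are the 8 members, the 3 genes of smallest p in each list, the 3 nearest profiles to Ifng and to Tbx21, and the transcripts that passed the filter. Some genes that this rule takes are not reported here. All 8 members matched the RefSeq promoter table, with 10 windows. Alternatives were an adjusted p under 0.01, a pseudocount of 0.1, median scaling, a stricter filter (5 FPKM) or none, no mean trend, a block for replicate number, and omission of each library. Figures were drawn with matplotlib 3.10.9.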

Additional observations from a re-analysis of the deposited data

How the results depend on the processing

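Over 13 alternatives, 0 of the 8 genes were called, except without KO replicate 3, where 2 were (range without 1 library 0 to 2), and 0 of their transcripts were called in any. The 43 genes of the other lists gave 0 calls, except without KO replicate 3 (range 0 to 10). The count over all genes was 12, and was 5 with a filter at 5 FPKM, 7 at an adjusted p under 0.01 and 0 to 1088 without 1 library. It was 0 without KO replicate 1, with 346 genes at an unadjusted p under 0.05, and 1088 without KO replicate 3. It was 6 without KO replicate 2 and 6, 1 and 4 without WT replicates 1, 2 and 3. The count over all transcripts was 8, and was 4 with no filter, 25 with no mean trend, 4 at an adjusted p under 0.01 and 1 to 6 without 1 library. With the replicate number as a block, 13 genes and 3 transcripts were called and 0 of the 8 genes. Same-numbered libraries did not deviate together (correlations 0.007, -0.017 and -0.076). With 3 libraries per group these values cannot show whether the numbers pair samples, which the labels do not say.

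Some differences near 0 that were never called changed sign. After median scaling they were 0.0046 for Runx3, 0.0084 for Ifngr1, 0.030 for the distal Runx3 transcript and 0.037 for the coding Ifngr1 transcript. Without 1 library the log2 differences ran from -0.093 to 0.0645 for Runx3, -0.12 to 0.059 for Ifngr1, -0.0125 to 0.084 for Ifngr2, -0.32 to 0.017 for Rora and -0.016 to 0.16 for Bcl6. For transcripts they ran from -0.0945 to 0.054 for distal Runx3, -0.39 to 0.35 for proximal Runx3, -0.16 to 0.13 for coding Ifngr1, -1.22 to 0.43 for the Ifngr1 decay transcript and -0.013 to 0.084 for Ifngr2. The differences of Ifng (0.59 to 1.93, the highest with a pseudocount of 0.1), Tbx21 (0.43 to 0.88) and Il12rb2 (-1.30 to -0.16) kept their direction in every alternative that gave a value. Limma adjusted p ran from 0.0557 to 0.837 for Ifng, 0.0230 to 0.9999 for Tbx21 and 0.00879 to 0.9999 for Il12rb2. The cause of these shifts was not tested. Low depth limits Ifng and Hlx most.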
